A study of Mus musculus with 3 samples.

Results

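The genes described here are 9 transcription factors and markers of the renal stroma: Foxd1, Meis1, Meis2, Snai2, Tbx18, Penk, Pdgfra, Ntn1 and Ecm1. They were taken by gene symbol from the oligos that carry exactly 1 symbol in the array's annotation, and oligos of the same symbol were averaged. All 9 were measured on all 3 arrays and 0 were missing, out of 19635 genes tested. Meis1, Meis2, Snai2, Foxd1, Penk, Ntn1 and Ecm1 had 1 oligo each, and Tbx18 and Pdgfra had 2. The study set RNA of the 13.5 dpc (days post coitum) kidney directly against RNA of the 10.5 dpc metanephric mesenchyme on each of 3 2-colour arrays, which form 1 group. Both tissues were microdissected from embryos of the CD1 mouse strain, sexes were pooled, and amplified RNA was labelled. No allele, transgene or agent is named for either tissue.

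The stroma is the interstitial compartment of the kidney. Its cells descend largely from Foxd1-expressing progenitors that lie around the cap mesenchyme, and they give rise to interstitial fibroblasts, pericytes, mesangial cells and renin cells. The stroma also signals to its neighbours: it supplies retinoic acid, which supports Ret in the ureteric bud, and it influences the balance between renewal and differentiation of nephron progenitors. Most of the genes described here are also active outside the kidney, in limb, somite, neural crest or gut mesenchyme.

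Each deposited value is a log2 ratio of the 2 channels of an array. The sources used here leave its numerator unstated. Genes are therefore described only as positive or negative in the deposited ratio, and neither sign is read as higher in the kidney. The labels mention a dye swap without tying it to an array. Between 21433 and 21477 oligos had a value on an array. Array 3 stood apart: across all genes its log2 ratios correlated with those of arrays 1 and 2 at Pearson r = 0.17 and 0.16, against 0.46 between arrays 1 and 2, so results are also given without single arrays. Genes are not independent replicates, and these correlations are descriptions. The labels do not say whether each array had its own pool of tissue. The p-values thus reflect only spread from array to array, which may be technical. Limma joins each gene's own spread with a spread shared over all genes, and its intervals rest on both. A ratio gives no level, so whether a marker was present or absent in either tissue could not be read. In bulk tissue, fewer cells of a type and less RNA per cell cannot be told apart.

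Promoter sequences show the regulatory letters in front of these genes, among them the recognition word of the Meis factors, which are themselves members. RefSeq promoter entries (build GRCm38.p6) matched 6 of the 9 genes; those of Penk, Snai2 and Ntn1 were not matched. Each entry runs from 250 bases before to 50 bases after the gene's start and was searched on both strands for 3 words: TGACAG, the core bound by Meis homeodomains, CAGGTG, an E-box bound by Snail factors, and GTAAACA, bound by forkhead factors. Foxd1 is shown because it defines the stromal progenitor, and Meis2 because it had the largest ratio among the genes with a promoter entry. The 250 bases before the start are printed 5′ to 3′ on the gene's strand, with matches in capitals.
Foxd1, chr13:98353995-98354244, plus strand: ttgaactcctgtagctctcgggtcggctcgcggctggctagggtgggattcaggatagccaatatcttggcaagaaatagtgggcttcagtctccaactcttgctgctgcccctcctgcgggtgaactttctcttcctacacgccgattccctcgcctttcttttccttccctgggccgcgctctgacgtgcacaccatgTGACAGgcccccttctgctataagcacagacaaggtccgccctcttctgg
Meis2, chr2:116064620-116064869, minus strand: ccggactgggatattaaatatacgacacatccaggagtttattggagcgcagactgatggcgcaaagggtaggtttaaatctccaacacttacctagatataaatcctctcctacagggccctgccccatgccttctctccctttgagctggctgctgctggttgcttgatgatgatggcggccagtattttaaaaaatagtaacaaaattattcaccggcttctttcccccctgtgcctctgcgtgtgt

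The Meis word was found in 3 of the 6 promoters, those of Foxd1, Pdgfra and Tbx18, and in 19.2% of all 32851 promoter entries. In Foxd1 it begins 50 bases before the start. The other matches are shown as 30-base stretches, because they overlap or follow the start.
Pdgfra, chr5:75152236-75152265, plus strand: gacttcatttccTGACAGctatttacttta
Tbx18, chr9:87731225-87731254, minus strand: gccttgaagtgcTGACAGatcaaggcaaca
CAGGTG and GTAAACA were found in 0 of the 6 windows, against 20.2% and 3.65% of all entries. A match of letters is a description and not a bound site, and a window without one says nothing of the factor. The genes with the word did not lie on 1 side of the ratio: Foxd1 had a positive mean, Pdgfra a negative one, and the oligos of Tbx18 went both ways.

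As a group the stromal genes leaned to the positive side of the ratio. Of the 9 genes, 7 had a positive mean, against 50.3% of all genes. The 7 include Tbx18, whose 2 oligos had means of opposite sign. The median log2 ratio of the 9 genes was 0.47, against 0.0020 over all genes tested. The members' own medians were 0.34, 0.42 and 0.59 on arrays 1, 2 and 3. With p-values adjusted over all 19635 genes (limma with Benjamini-Hochberg adjustment, two-sided), 0 of 9 members were called, against 0.00509% of all genes, and the smallest adjusted p among them was 0.169. At an unadjusted limma p under 0.05 there were 4 members, Penk, Meis2, Snai2 and Foxd1, against 16.8% of all genes. All 4 were on the positive side, which held 8.99% of all genes with that call. On the negative side there were 0 members and 7.83% of all genes. Leaving out array 2 left 1 of these 4, Penk, and leaving out array 1 left 3, without Foxd1. On all 3 arrays 5 members were positive, against 21.5% of all genes, and 1 was negative, against 19.9%. The genes were chosen with earlier results of these data known, so these counts describe them and are no independent evidence.

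**Figure D1:**
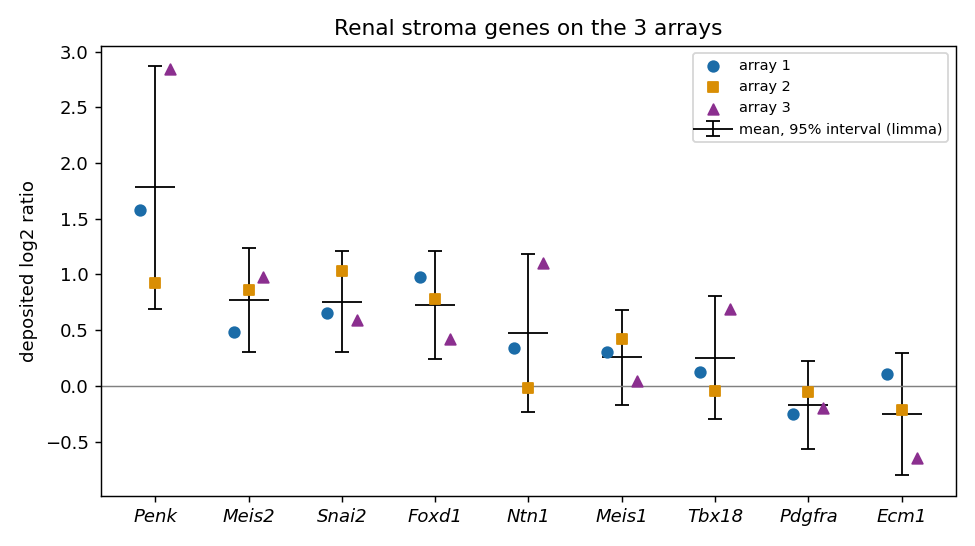
The deposited log2 ratio of each of the 9 stromal genes is plotted for arrays 1, 2 and 3 (coloured symbols), with the mean (black bar) and limma's 95% interval; genes are ordered by mean. The intervals of Penk, Meis2, Snai2 and Foxd1 lie above 0 and those of the other 5 genes cross 0.

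Among the transcription factors, Foxd1, the forkhead factor that marks stromal progenitors, had log2 ratios of 0.98, 0.78 and 0.42 on arrays 1, 2 and 3. All 3 arrays were on the positive side, and array 3 was the lowest. The mean was 0.72 ± 0.28 (SD, n = 3 arrays), a 1.65-fold difference with a 95% interval of 1.18 to 2.31 (limma, adjusted p = 0.188). Within each array Foxd1 stood at percentile 93.2, 94.0 and 78.1 of all genes. Its mean ranged from 0.60 without array 1 to 0.88 without array 3. Without array 1 or without array 2 it no longer had an unadjusted limma p under 0.05.

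Meis2 and Meis1 encode related TALE homeodomain factors, which are widely used as stromal markers in the developing kidney. Meis2 had 0.48, 0.86 and 0.98 on arrays 1, 2 and 3, all on the positive side with array 1 the lowest. Its mean was 0.77 ± 0.26 (limma, adjusted p = 0.170), a 1.71-fold difference with a 95% interval of 1.24 to 2.36. Meis1 had 0.30, 0.42 and 0.047, also all positive, with array 3 close to 0. Its mean was 0.25 ± 0.19, and its interval on the log2 scale, from -0.17 to 0.68, took in 0 (limma, adjusted p = 0.490). Meis1 was below Meis2 on each array, by 0.52 ± 0.38 on average in log2 ratio. This gap was larger than its SD over arrays, but the interval of Meis1 overlapped that of Meis2, and 0.25 is the smallest two-sided p that an exact sign-flip test of 3 arrays allows.

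Snai2, the zinc-finger repressor Slug, acts in epithelial-to-mesenchymal transitions and neural crest. Its log2 ratios were 0.65, 1.03 and 0.59 on arrays 1, 2 and 3. Array 2 was the highest, and all 3 were on the positive side. The mean was 0.76 ± 0.24 (limma, adjusted p = 0.169), a 1.69-fold difference with a 95% interval of 1.23 to 2.32. Without array 2 it stood at 0.62 and no longer had an unadjusted limma p under 0.05.

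Tbx18 is a T-box factor of the mesenchyme around the ureter and of stromal lineages, and also of somites. Its averaged values of 0.13, -0.049 and 0.69 gave a mean of 0.25 ± 0.38, with signs differing between arrays (limma, adjusted p = 0.589). The mean joined 2 oligos that opposed each other. The first, annotated to a RefSeq mRNA, had -0.34, -0.23 and -0.023, with a mean of -0.20 ± 0.16. The second, annotated to a cDNA clone, had 0.59, 0.13 and 1.40, with a mean of 0.71 ± 0.64. The arrays of the first oligo were all negative and those of the second all positive, so no side is given for Tbx18. Neither oligo had an unadjusted limma p under 0.05 when tested alone. The averaged mean was 0.038 without array 3.

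The gap of 0.90 between the means of these oligos was reached or exceeded by 14.0% of the 863 symbols with 2 measured oligos. Over those symbols the means of the paired oligos correlated at r = 0.068 across symbols, and 48.8% of pairs had opposite signs. Where both oligos were at least 0.5 in size, 31 of 50 pairs had the same sign. This bears on every gene here with a single oligo, for which no such check can be made: Foxd1, Meis1, Meis2, Snai2, Penk, Ntn1 and Ecm1.

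Of the secreted products and surface proteins, Penk had the largest ratio and the widest spread. It encodes proenkephalin, the precursor of the opioid enkephalin peptides, and is found in embryonic mesenchyme, kidney stroma included. On arrays 1, 2 and 3 its log2 ratios were 1.58, 0.92 and 2.84. All were on the positive side, and array 3 stood 1.92 above array 2. The mean was 1.78 ± 0.98 (limma, adjusted p = 0.171), a 3.44-fold difference with a 95% interval of 1.62 to 7.30. Limma drew the SD of Penk towards that shared over all genes, 0.33, which narrowed this interval. Without array 3 the mean was 1.25. Penk was the only member with a mean of at least 1 on the log2 scale, which 2.35% of all genes reached on that side, and it stood at percentile 97.9, 95.9 and 99.8 of the 3 arrays. Its SD over arrays was at percentile 91.1 of all genes.

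Ntn1, the secreted guidance protein netrin-1, is made by stromal progenitors as well as by the floor plate of the neural tube. It had 0.34, -0.016 and 1.10 on arrays 1, 2 and 3. Array 2 lay close to 0, and array 3 carried most of the mean of 0.47 ± 0.57 (limma, adjusted p = 0.443). Without array 3 the mean was 0.16, and without array 2 it was 0.72. Array 3 was the highest array for Penk, Ntn1, Tbx18 and Meis2, the lowest for Foxd1, Snai2, Meis1 and Ecm1, and between the others for Pdgfra.

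Pdgfra, a receptor tyrosine kinase for platelet-derived growth factors on mesenchymal cells, had averaged values of -0.26, -0.058 and -0.19. It was the only member negative on all 3 arrays, with a mean of -0.17 ± 0.10 and a log2 interval from -0.56 to 0.23 (limma, adjusted p = 0.614). Its first oligo had -0.18, 0.19 and -0.30, and its second -0.33, -0.31 and -0.088. The oligo means of -0.095 and -0.24 differed by 0.15, less than the SD of the first oligo over arrays, which was 0.26. The averaged values spread less over arrays than either oligo alone, since the oligos did not vary together.

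Ecm1 encodes a secreted matrix glycoprotein that has been placed in the kidney stroma as a brake on Ret in the ureteric bud. It had 0.11, -0.22 and -0.65 on arrays 1, 2 and 3, with signs differing between arrays. Its mean of -0.25 ± 0.38 did not differ from 0 beyond the spread (limma, adjusted p = 0.588), and it was -0.056 without array 3. Ret itself stood at -0.19 ± 0.26, also with arrays of both signs.

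**Figure D2:**
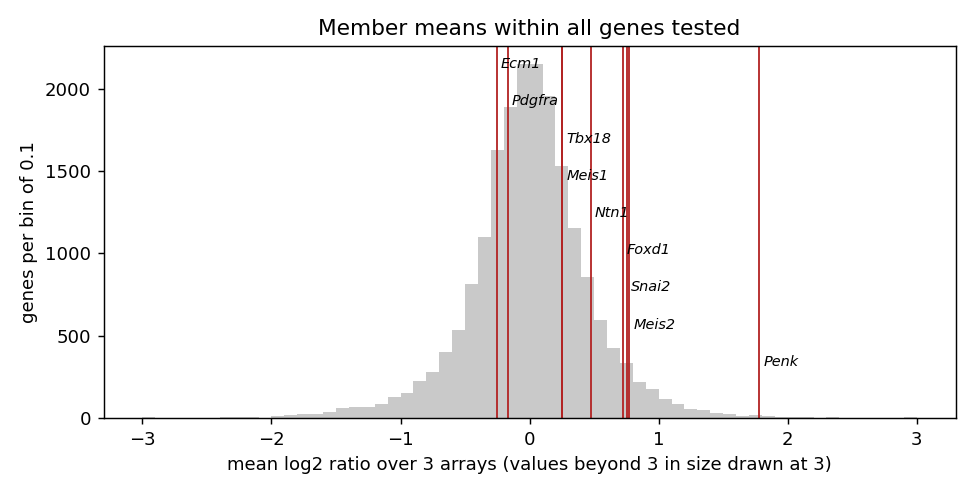
Grey bars count the 19635 genes tested by mean log2 ratio over the 3 arrays, in bins of 0.1, with values beyond 3 in size drawn at 3; red lines mark the 9 stromal genes. Penk lies in the far right tail, Meis2, Snai2 and Foxd1 lie together between percentiles 94.4 and 95.2, and Pdgfra and Ecm1 lie left of 0.

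By mean log2 ratio the order was Penk, Meis2, Snai2, Foxd1, Ntn1, Meis1, Tbx18, Pdgfra and Ecm1. Penk exceeded Meis2 on 3 of 3 arrays, by 1.01 ± 0.90. For the other 7 pairs of neighbours in this order the mean difference was smaller than its SD over arrays. Meis2, Snai2 and Foxd1 stood close together, between percentiles 94.4 and 95.2 of all genes. Meis1 stood at percentile 75.1 with Tbx18 just below it, Pdgfra at 31.9 and Ecm1 at 24.4.

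**Figure D3:**
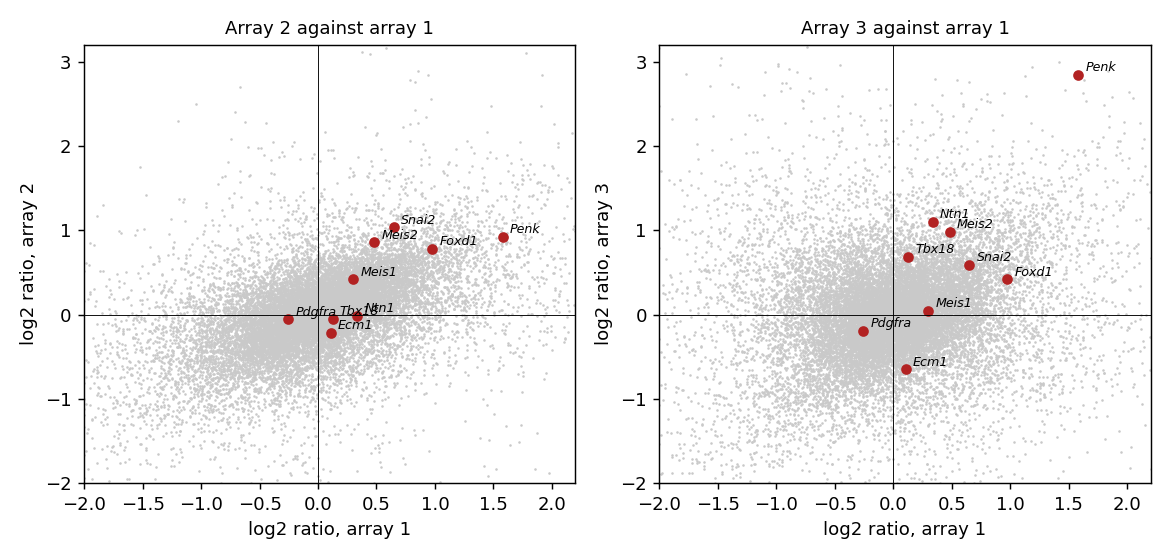
Each grey point is a gene, with its log2 ratio on array 1 against that on array 2 (left) or array 3 (right); axes are limited to the central range and genes beyond them are not drawn, and red points are the 9 stromal genes. On both panels Penk, Meis2, Snai2, Foxd1 and Meis1 are positive on both axes, and the cloud of all genes is rounder against array 3 (r = 0.17) than against array 2 (r = 0.46).

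The genes closest to Foxd1 over the 3 arrays, by Euclidean distance of log2 ratios, were Ndufb3, Car5b and Nlk, at distances of 0.069, 0.070 and 0.075. Within a distance of 0.25 there were 75 of 14745 named genes for Foxd1, 14 for Meis2, 20 for Snai2 and 25 for Ntn1. For Penk there was 1, Ogn. For Meis1 and Pdgfra, near the centre of the cloud, there were 544 and 691. With 3 arrays of 1 comparison a short distance says only that these values were alike.

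Other genes known from the renal stroma were counted as a list beside the members, and the difference between the lists was not tested. Of 31 genes 26 were measured, 18 had a positive mean, against 50.3% of all genes, and the list's median was 0.27. At an unadjusted limma p under 0.05 there were 7 on the positive side, against 8.99% of all genes, and 1 on the negative side, against 7.83%; 0 passed the adjustment over all genes. Hic1, a transcriptional repressor of mesenchymal progenitors, stood at 2.34 ± 0.52, the matrix proteoglycan Dcn at 2.15 ± 0.26, and Tcf21, a basic helix-loop-helix factor of stroma and podocytes, at 1.57 ± 0.26. The matrix proteins Smoc2 and Tnc stood at 0.98 ± 0.11 and 0.86 ± 0.51, the growth factor Gdf10 at 0.61 ± 0.36 and Hoxd10 at 0.54 ± 0.36. Nr2f1, an orphan nuclear receptor, stood on the other side at -0.57 ± 0.19. In a list of retinoid genes, which also held Ret, 11 of 13 were measured, with a median of 0.12. The synthesis enzyme Aldh1a3 stood at 0.53 ± 0.27 and the binding protein Crabp2 at -0.97 ± 0.032. These were the 2 of that list with an unadjusted limma p under 0.05, against 16.8% of all genes. The other synthesis enzymes, Aldh1a1 and Aldh1a2, stood at 0.43 ± 0.48 and 0.12 ± 0.12, each with arrays of both signs. Which cells of either tissue held these transcripts was not measured.

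Ligands, receptors and partners of the members went both ways. For Pdgfra, the ligand gene Pdgfa had 1.08, 0.33 and 0.45 on arrays 1, 2 and 3, a mean of 0.62 ± 0.40, while the ligand gene Pdgfc had -0.77, -0.34 and -0.48, a mean of -0.53 ± 0.22. These 2 of 6 had an unadjusted limma p under 0.05 (limma adjusted p = 0.271 and 0.245), against 16.8% of all genes. The related receptor Pdgfrb, of pericytes and mesangium, stood at -0.34 ± 0.32, negative on all 3 arrays as Pdgfra was. For Ntn1, the receptor Neo1 stood at 0.78 ± 0.18 and the receptor Unc5b at -0.57 ± 0.23, each with 1 sign on all 3 arrays (limma adjusted p = 0.149 and 0.230). Dcc stood at -0.45 ± 0.35 and Unc5c at -0.060 ± 0.34, and the netrin-G gene Ntng1 at 0.49 ± 0.12. The netrin list had 3 of its 9 measured genes at an unadjusted limma p under 0.05, against 16.8% of all genes. Of these 3, 2 were positive and 1 negative, and the list's median was -0.060. For Penk, the enkephalin receptor gene Oprd1 had -1.59, -6.64 and 1.29, which spans both sides; the value of -6.64 is the floor of the table, a ratio of 0.01 that 2 oligos held on each array. Oprk1 had -0.48, -0.41 and 1.53. Pnoc, the precursor of nociceptin, stood at 0.58 ± 0.23. The receptor Ogfr, which binds an enkephalin peptide but is unrelated to the other opioid receptors, stood at -3.28 ± 0.91 (limma, adjusted p = 0.107).

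Close relatives of the members stood on both sides. Meis3 stood at -0.38 ± 0.24, against positive means of Meis1 and Meis2, and Tgif1, another TALE homeodomain gene, at 0.79 ± 0.066. Snai1 had 0.42, -0.17 and 0.72, with signs differing between arrays, beside 3 positive arrays of Snai2. In the same list of Snail, Zeb and Twist factors Twist1 and Twist2 stood at -1.57 ± 0.13 and -1.15 ± 0.019. Both genes are also counted among the limb and body wall markers below. Of 7 measured forkhead D, C and F genes beside Foxd1, 5 had a positive mean, against 50.3% of all genes, and the median was 0.18. Foxc1 and Foxc2 stood at 0.70 ± 0.099 and 0.69 ± 0.33, Foxd3 and Foxd4 at 0.18 ± 0.46 and 0.097 ± 0.40, and Foxd2 at -0.28 ± 0.29, these last 3 with arrays of both signs. Among 13 measured T-box genes, Tbx15 stood at -0.87 ± 0.49 and Tbx20 at 0.62 ± 0.41, and the median was 0.053. At an unadjusted limma p under 0.05 the positive side held 1 of 5 TALE genes and 2 of 7 forkhead genes. It also held 0 of 7 Snail, Zeb and Twist genes and 1 of 13 T-box genes, against 8.99% of all genes. For these lists in turn the negative side held 0, 0, 2 and 1, against 7.83% of all genes. The differences between members and their relatives were not tested. In the list of Ecm1 relatives and ligands 0 of 4 measured genes had an unadjusted limma p under 0.05, against 16.8% of all genes. Oprm1 and Ecm2 were not analysed here.

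**Figure D4:**
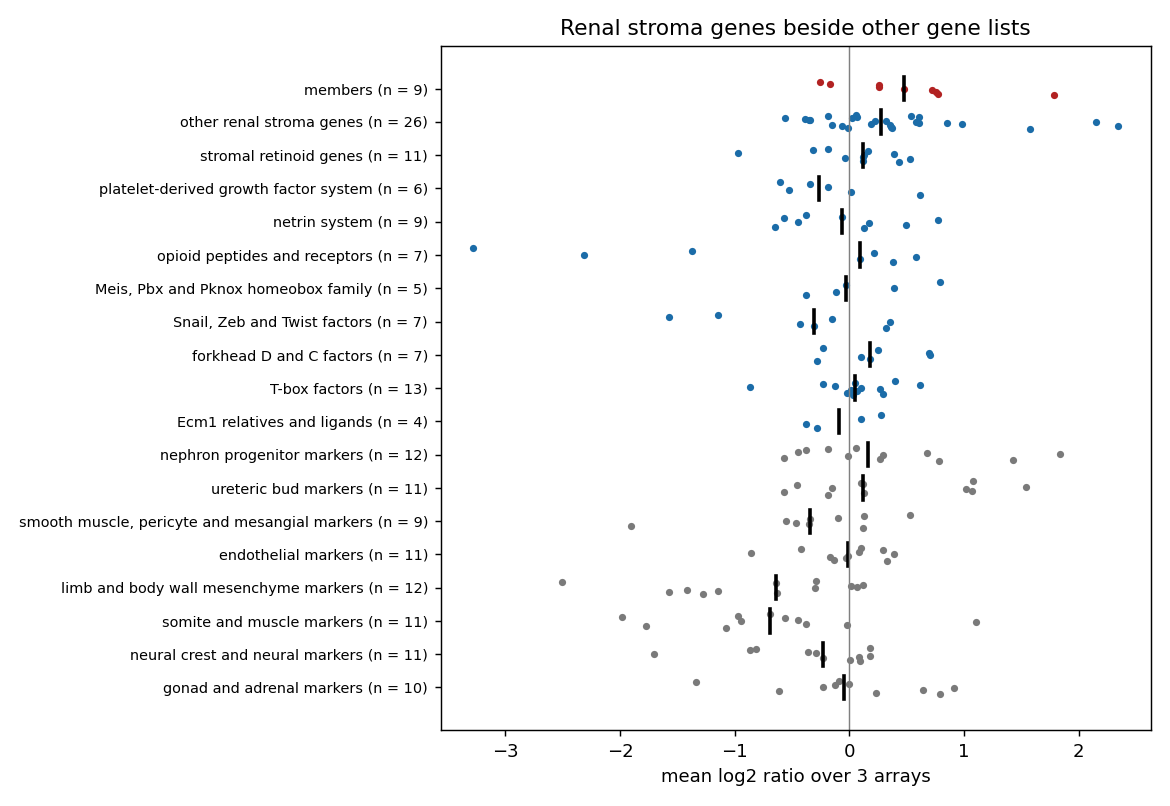
Each point is the mean log2 ratio over the 3 arrays of 1 measured gene, by gene list, and black bars are list medians; red marks the 9 stromal genes, blue their relatives, partners and other stromal genes, and grey the markers of other cell types. The stromal genes have the highest median, 0.47, and the markers of somite and muscle and of limb and body wall have the lowest, -0.70 and -0.64. The stromal genes did not rank highest on each array. On array 2 the forkhead list had a median of 0.48 against their 0.42. On array 3 the opioid list had 0.75 against their 0.59.

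Markers of other tissues are given beside the members, and their part in the members' values was not tested. Limb and body wall mesenchyme, where Meis1, Meis2, Snai2, Tbx18 and Pdgfra are also active, had 9 of 12 measured markers negative. The other 3 were positive, against 50.3% of all genes. Values ranged from -2.51 for Pitx1 to 0.12 for Alx4, with a median of -0.64. Of the members just named, Meis1, Meis2 and Snai2 were positive on all 3 arrays and Pdgfra was negative on all 3. No side is given for Tbx18. Somite and muscle markers were negative for 10 of 11 and positive for 1, against 50.3% of all genes positive. Their median was -0.70, with a range from -1.98 to 1.11. At an unadjusted limma p under 0.05, 7 limb and 6 somite markers were negative, against 7.83% of all genes. On the positive side there were 0 and 1, against 8.99%. Neural crest and neural markers had a median of -0.23 over 11 genes and ranged from -1.71 to 0.18. Markers of the cap mesenchyme, which borders the stroma, had a median of 0.16 over 12 genes and ranged from -0.57 to 1.84. Of these, 7 had a positive mean, as did 7 of 11 ureteric bud markers, against 50.3% of all genes. The median of the ureteric bud markers was 0.12. At an unadjusted limma p under 0.05 there were 4 cap mesenchyme and 3 ureteric bud markers on the positive side, against 8.99% of all genes. On the negative side there were 1 and 0, against 7.83%. Calls on the positive side were thus not particular to the stromal genes. Smooth muscle, pericyte and mesangial markers had a median of -0.34 over 9 genes, from -1.90 for Tagln to 0.53 for Mcam. Of these, 6 were negative and 3 positive, against 50.3% of all genes positive. Pericytes and mesangial cells descend largely from Foxd1-expressing progenitors, but these markers are not limited to that lineage. Endothelial markers had a median of -0.011 over 11 genes, and gonad and adrenal markers -0.046 over 10. At an unadjusted limma p under 0.05 the smooth muscle, endothelial and gonad lists had 1, 0 and 3 positive genes, against 8.99%. They had 2, 1 and 2 negative ones, against 7.83%. The neural list had 0 positive and 2 negative.

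**Figure D5:**
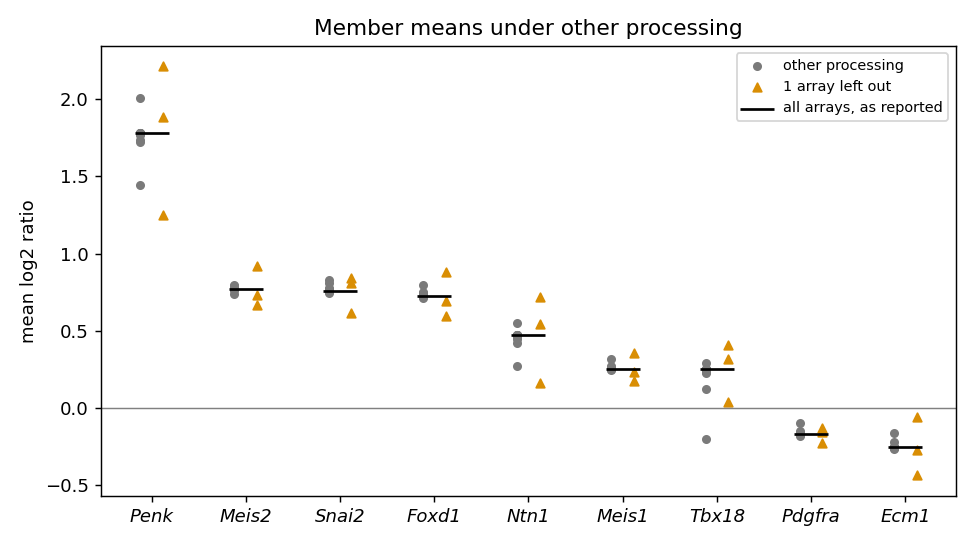
For each of the 9 stromal genes the black bar is the mean log2 ratio as reported, grey points are means under other processing of the same 3 arrays, and triangles are means with 1 array left out. Tbx18 crosses 0 where its first oligo stands for the gene, and the other 8 genes keep their side in all settings shown. Some of these settings alter only the test and leave the means as they were.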

How the data were processed

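Images were read with ImaGene 5.5, and ratios were normalized by print-tip loess within arrays and then between arrays in R, per the labels. They also name a lowess curve using 20% of the data at each point and a control value raised to 10 where lower. The authors deposited log2 ratios, 1 per oligo and array; the log base was read from the values, and neither the numerator nor the dyes are given in the sources used here. Such normalization centres the ratios, which hides any shift shared by most genes. Amplification can alter ratios of single transcripts, and spot intensities were not used here.

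Of 22702 spots, 881 control spots were left out. Oligos with a value on all 3 arrays were kept. Of 21821 library oligos, 16658 had 1 symbol in the platform annotation, 137 several and 5026 none listed; the RefSeq gene table (GRCm38.p6) changed 0 symbols. Oligos of a symbol were averaged, and oligos with several or no symbols stayed in the fit unnamed. The test of each of 19635 means against 0 used lmFit with a single coefficient and eBayes (limma 3.58.1, R 4.3.3; two-sided, Benjamini-Hochberg over all genes, threshold 0.05); intervals are limma's moderated 95% intervals. The code was tested on simulated data. No pair of arrays held identical values over all genes, and the number of arrays limits the precision. Distance was computed over the 3 log2 ratios.

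The members and the gene lists were chosen with earlier results of these data known. Some genes, such as Twist1, Twist2 and Pdgfrb, stand in several lists, so the lists are not independent of each other. Named beside the members were genes of the stromal, ligand, receptor and relative lists with an unadjusted p under 0.05, and a fixed set of direct partners and nearest relatives of the members. Foxd3, Foxd4, Aldh1a1 and Aldh1a2 were added after their values were seen. In lists of other cell types, and in range statements, the highest and lowest genes were named after their values were seen. Alternatives were centring, scaling and quantile normalization of arrays, array weights, single oligos, a value on at least 2 arrays, named genes only, robust eBayes, log2 ratios limited to 4 in size, averaging of linear ratios, and leaving out each array.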

Additional observations from a re-analysis of the deposited data

How the results depend on the processing

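All 9 members stayed short of an adjusted p of 0.05 in each of the 12 alternative fits (limma), and 8 of 9 kept their side in all 13 alternatives. The exception was Tbx18, which stood at -0.20 where its first oligo represented the gene. Several alternatives could not move a member's side. Robust eBayes, named genes only, the limit on size and the rule of at least 2 arrays left all member means as they were. Single oligos could change only Tbx18 and Pdgfra. A gene with 1 sign on all 3 arrays also keeps its side under array weights or with an array left out. The number of members at an unadjusted limma p under 0.05 ranged from 1 without replicate 2 to 4 without replicate 3, and was 4 in the other 9 alternatives, with all arrays kept. The members' median of 0.47 was 0.32 with array weights (1.23, 1.65 and 0.49 for arrays 1, 2 and 3) and ranged from 0.36 without replicate 3 to 0.62 without replicate 2. Penk ranged from 1.25 to 2.21, Foxd1 from 0.60 to 0.88, Meis2 from 0.67 to 0.92, Snai2 from 0.62 to 0.84 and Ntn1 from 0.16 to 0.72. Over all genes, the number at an unadjusted p under 0.05 was 3304, and it was 1678 without replicate 1, 2075 without replicate 2 and 3913 without replicate 3. No paired analysis was possible because the 3 arrays form 1 group and each already sets both RNAs against each other. Signal over background could not be examined, since the values are ratios.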
